A study of Mus musculus with 4 samples.

Results

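Trp53 encodes the transcription factor p53, and the 9 genes described here are Trp53 itself with Trp53inp1, Ccng1, Cdkn1a, Mdm2, Phlda3, Bbc3, Bax and Casp9, its targets and partners in growth arrest and apoptosis. They were found by gene name in a deposited table of 55414 genes, where each name occurred once, and all 9 passed the filter on low counts that left 17017 genes for testing. The study measured RNA in the cerebral cortex of C57BL/6J mice on postnatal day 1. The 2 libraries labelled cKO (replicates 2 and 3) carry Mkk7flox/flox with Emx1-Cre, and the 2 labelled Control (replicates 2 and 3) carry Mkk7flox/flox alone, so both groups share the floxed alleles. Emx1-Cre recombines floxed alleles in dorsal forebrain progenitors, which give rise to excitatory neurons and glia of the cortex, while interneurons, microglia, vessels and meninges of the same tissue come from other lineages. A group with Emx1-Cre and no floxed allele was not analysed here. Whether each library holds 1 animal or a pool is not stated in the labels.

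The p53 protein is held low in unstressed cells by MDM2, a ubiquitin ligase that marks it for destruction, and it builds up after DNA damage or other stress mainly because that destruction stops. Stabilised p53 switches on genes that halt the cell cycle, genes that restrain p53 in turn, and genes of the mitochondrial route to cell death. In that route BH3-only proteins such as PUMA release BAX to permeabilise mitochondria, and the cytochrome c that leaks out assembles the apoptosome that activates caspase-9. MKK7, encoded by Map2k7, activates the JNK kinases, which can phosphorylate p53 and several BCL2 proteins. The same machinery removes surplus neurons during development.

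Depth was similar across libraries, with 19421470 and 22511175 counts in cKO 2 and cKO 3 and 19429868 and 19842152 counts in Control 2 and Control 3. The lowest count of any of the 9 genes was 157 (Trp53inp1 in Control 3), so none was near its detection limit. Map2k7 stood at 47.9 and 48.2 CPM (counts scaled to a library of 1000000) in cKO 2 and cKO 3, against 38.4 and 30.4 CPM in Control 2 and Control 3 (log2 fold change 0.48 with an SE of 0.18, edgeR adjusted p = 0.428). The count covers the whole gene and the floxed exons are not named, so the genotype labels could not be checked from it, and every direction below rests on the labels. The libraries also differed in sex: cKO 3 was male, with 985 counts of the Y-linked Ddx3y and 0 of Xist, and the other 3 libraries, with 0 of Ddx3y and 1004 to 1218 of Xist, were female. All 9 markers of dorsal telencephalon neurons had counts in every library, with a summed level of 1937 to 1969 CPM in cKO and 1495 to 1717 CPM in Control. Summed levels of other marker lists differed between the groups: 9 striatal neuron markers summed to 125 to 129 CPM in cKO and 283 to 394 CPM in Control, 6 meningeal fibroblast markers to 326 to 353 CPM in cKO and 224 to 268 CPM in Control, and 5 astrocyte markers to 842 to 891 CPM in cKO and 1116 to 1226 CPM in Control. The 9 cortical interneuron markers summed to 716 to 830 CPM in cKO and 937 to 991 CPM in Control. For 7 microglia markers the sums were 98.9 to 137 CPM in cKO and 135 to 144 CPM in Control, and for 5 endothelial markers 178 to 184 CPM in cKO and 162 to 171 CPM in Control. The 6 red blood cell markers summed to 1875 to 4911 CPM in cKO and 3091 to 3411 CPM in Control, with Slc4a1 at 0 in cKO 3. The part of these marker levels in the results below was not tested. In such tissue samples, fewer cells of a type and less RNA per cell cannot be told apart.

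Several of these genes have matches to the p53 consensus near a start of transcription, shown here because p53 acts on its targets by binding such sequences. Promoter windows of 300 bases (250 before to 50 after the start) came from RefSeq on GRCm38.p6, an older build than the GRCm39 of the count table. The p53 half-site consensus was searched: 3 purines, C, 2 positions of A or T, G and 3 pyrimidines, a pattern that reads alike on both strands. Windows were listed for 8 of the 9 genes; Trp53inp1 is named only. At least 1 exact half-site lay in a window of 5 of these 8 genes (Trp53, Ccng1, Cdkn1a, Mdm2 and Bax), or 62.5% of these genes, beside 9.55% of all 27025 genes with a window. A full-site match was a pair of half-sites up to 13 bases apart with at most 1 mismatch outside the central C and G. It lay in windows of Ccng1 and Cdkn1a, 2 of the 8 genes, beside 0.718% of all genes with a window. Of 22 further p53 targets with a window, from a list described below, 7 held a half-site (31.8%) and 2 a full-site match (9.09%). Capitals mark the half-site and full-site matches; the Cdkn1a window belongs to an upstream start, and its downstream start's window held no match. No half-site was found in the windows of Bbc3, Casp9 and Phlda3, which says only that these letters are not in those windows. For Mdm2, whether the window covers the internal promoter that p53 uses was not checked.
Ccng1, chr11:40755237-40755536, minus strand: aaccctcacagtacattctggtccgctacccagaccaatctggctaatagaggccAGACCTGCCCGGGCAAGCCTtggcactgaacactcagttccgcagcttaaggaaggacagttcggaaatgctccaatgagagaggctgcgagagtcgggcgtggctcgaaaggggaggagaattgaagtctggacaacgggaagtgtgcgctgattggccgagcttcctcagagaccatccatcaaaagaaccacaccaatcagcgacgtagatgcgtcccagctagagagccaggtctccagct
Cdkn1a, chr17:29090729-29091028, plus strand: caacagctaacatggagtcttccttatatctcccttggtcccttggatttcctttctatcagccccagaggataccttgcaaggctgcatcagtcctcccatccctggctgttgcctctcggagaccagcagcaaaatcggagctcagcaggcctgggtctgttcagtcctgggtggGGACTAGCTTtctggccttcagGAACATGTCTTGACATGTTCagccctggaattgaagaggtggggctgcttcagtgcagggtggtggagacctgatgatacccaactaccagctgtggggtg
Trp53, chr11:69580269-69580308, plus strand: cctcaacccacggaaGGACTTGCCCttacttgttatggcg
Mdm2, chr10:117710920-117710959, minus strand: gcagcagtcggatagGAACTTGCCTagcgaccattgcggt
Bax, chr7:45467075-45467114, minus strand: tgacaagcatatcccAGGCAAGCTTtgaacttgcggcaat

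None of the 9 genes passed the threshold between genotypes (edgeR's quasi-likelihood test, Benjamini-Hochberg adjusted p under 0.05 over all 17017 genes), in a comparison that called 0.0470% of all genes (0.00588% higher and 0.0411% lower in cKO). Their edgeR adjusted p-values ran from 0.301 to 0.99. At an unadjusted p under 0.05 there were 3 of 9, all with higher levels in cKO (Trp53inp1, Ccng1 and Casp9), where 10.9% of all tested genes had such a p in either direction and 5.28% with cKO higher. DESeq2, which called 185 of the 17017 genes, called none of the 9 either. Fold changes were positive for 7 genes and negative for 2, where 49.8% of all tested genes were positive. Among the 7, Bax and Phlda3 were close to 0, at log2 fold changes of 0.00905 and 0.05. The median log2 fold change of the 9 was 0.12 against -0.00206 over all tested genes. In CPM the cKO and Control values of 6 of the 9 genes stood apart, 5 with cKO above and 1 with cKO below, beside 44.1% of all genes in either direction, 22.0% above and 22.2% below. On the authors' TPM values (transcript abundance scaled to 1000000, which takes transcript length into account) 5 stood apart, 3 above and 2 below, beside 41.1% of all genes in either direction, 20.1% above and 21.0% below. The difference between the scales lies in Trp53 and Mdm2, which overlapped in TPM, and in Cdkn1a, which did not. The 9 genes and the lists below were chosen with earlier results of these data known, so these counts do not test the group. The plot of levels by library shows the CPM values behind the CPM counts.

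**Figure D1:**
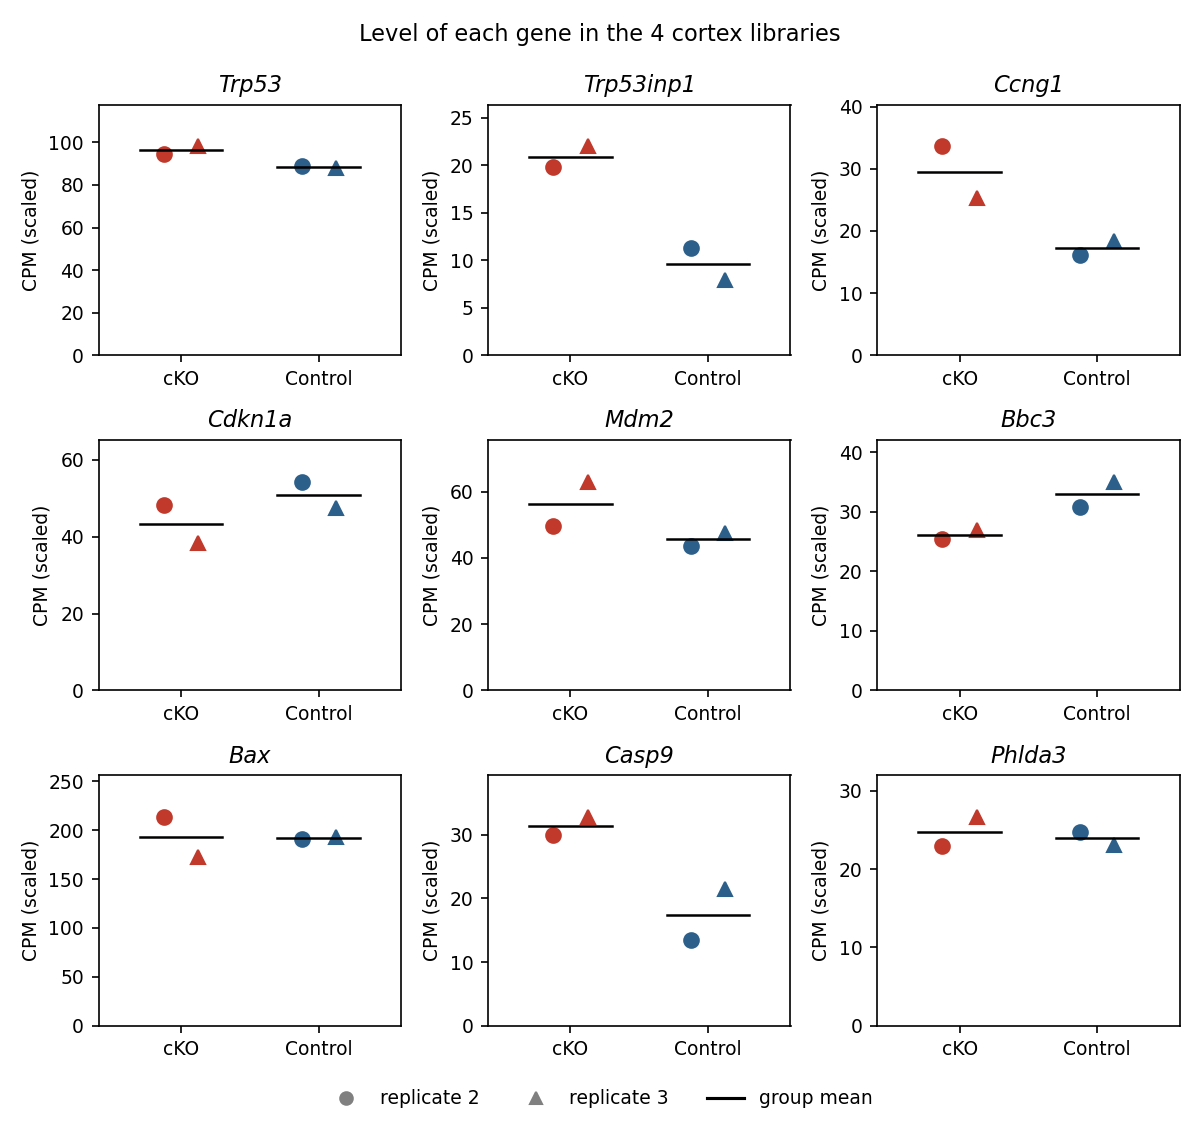
Scaled CPM (vertical axes from 0) of the 9 genes in each library, with 2 cKO libraries left of 2 Control libraries; circles are replicate 2, triangles replicate 3 and lines group means. Both cKO points lie above both Control points for Trp53, Trp53inp1, Ccng1, Mdm2 and Casp9, and below them for Bbc3.

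Trp53 itself was read at a steady level. Trp53 (ENSMUSG00000059552.14; chromosome 11, 69471185 to 69482699, plus strand, GRCm39, as for all genes below) stood at 94.7 and 98.1 CPM in cKO 2 and cKO 3, against 89.1 and 88.0 CPM in Control 2 and Control 3. Both cKO values were above both Control values, by a small margin: the fold was 1.09 with a 95% interval of 0.89 to 1.33 (log2 fold change 0.12, SE 0.12, n = 2 per group; edgeR adjusted p = 0.753). In TPM the groups overlapped, at 71.4 and 83.7 TPM in cKO 2 and cKO 3 and 72.3 and 69.8 TPM in Control 2 and Control 3. The pseudogene Trp53-ps had between 3 and 6.02 counts in each library, too few to bear on these values.

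Trp53inp1 had the largest fold of the 9. It encodes a stress-induced nuclear protein that promotes phosphorylation of p53 and also takes part in autophagy. Trp53inp1 (ENSMUSG00000028211.12; chromosome 4, 11156431 to 11174379, plus strand) stood at 19.9 and 22.0 CPM in cKO 2 and cKO 3, against 11.3 and 7.97 CPM in Control 2 and Control 3. The groups were apart in every pairing of libraries, with the lower cKO value well above the higher Control value. The mean was 20.9 ± 1.51 CPM in cKO and 9.61 ± 2.32 CPM in Control (SD, n = 2), a fold of 2.18 with a 95% interval of 1.41 to 3.36. The log2 fold change of 1.12 (SE 0.27) had an unadjusted p of 0.00366, rank 204 of the 17017 genes, and an edgeR adjusted p of 0.301. DESeq2 gave an adjusted p of 0.0630, the lowest that any alternative gave for a gene of this group. Intervals here and below are for 1 gene at a time and are not adjusted for the number of genes.

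Mdm2 and Ccng1 encode proteins that act back on p53. Mdm2 (ENSMUSG00000020184.16; chromosome 10, 117524780 to 117546663, minus strand) stood at 49.5 and 63.0 CPM in cKO 2 and cKO 3, against 43.7 and 47.5 CPM in Control 2 and Control 3. One library set much of that difference: cKO 3 was far above the other 3, and cKO 2 only just above Control 3. The fold was 1.23 with a 95% interval of 0.923 to 1.65 (edgeR adjusted p = 0.579). Its log2 fold change of 0.30 (SE 0.18) became 0.117 without cKO 3 and 0.467 without cKO 2. In TPM the groups overlapped, at 26.2 and 40.1 TPM in cKO 2 and cKO 3 and 24.4 and 28.3 TPM in Control 2 and Control 3.

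Ccng1 encodes cyclin G1, which recruits a phosphatase to MDM2. Ccng1 (ENSMUSG00000020326.8; chromosome 11, 40639379 to 40646138, minus strand) stood at 33.6 and 25.4 CPM in cKO 2 and cKO 3, against 16.1 and 18.4 CPM in Control 2 and Control 3. Both cKO libraries were above both Control libraries, but here cKO 2 was the higher one, the reverse of Mdm2. The mean was 29.5 ± 5.83 CPM in cKO and 17.3 ± 1.58 CPM in Control (SD, n = 2), a fold of 1.71 with a 95% interval of 1.17 to 2.48. The log2 fold change was 0.77 (SE 0.23), with an unadjusted p of 0.0115 and an edgeR adjusted p of 0.363. Its promoter window, printed above, holds a full-site match in 1 unbroken run of capitals. Cdkn1a, with matches of the same kind at its upstream start, had a negative fold change. Any part of such matches in the fold changes was not tested.

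The cell cycle inhibitor and the Akt repressor of the group did not stand apart between the groups in CPM. Cdkn1a encodes p21, which blocks cyclin-dependent kinases and is the textbook p53 target of growth arrest. Cdkn1a (ENSMUSG00000023067.15; chromosome 17, 29309950 to 29319701, plus strand) stood at 48.2 and 38.4 CPM in cKO 2 and cKO 3, against 54.3 and 47.4 CPM in Control 2 and Control 3. The cKO 2 value reached into the Control range, and the cKO 3 value lay below it. In TPM the groups stood apart, at 65.2 and 58.2 TPM in cKO 2 and cKO 3 and 82.0 and 67.8 TPM in Control 2 and Control 3. The log2 fold change was -0.23 (SE 0.18, edgeR adjusted p = 0.687), a fold of 0.852 with a 95% interval of 0.632 to 1.15. It was -0.0770 without cKO 3 and -0.402 without cKO 2. Phlda3 encodes a small pleckstrin-homology protein that keeps Akt from the membrane. Phlda3 (ENSMUSG00000041801.6; chromosome 1, 135693857 to 135696874, plus strand) stood at 23.0 and 26.7 CPM in cKO 2 and cKO 3, against 24.8 and 23.1 CPM in Control 2 and Control 3. The Control values lay inside the cKO range, at a fold of 1.04 with a 95% interval of 0.744 to 1.44 (edgeR adjusted p = 0.955), and the sign of its log2 fold change of 0.05 turned to -0.0619 without cKO 3 and to -0.00164 without Control 3.

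The 3 apoptosis genes of the group did not share a direction. Bbc3 encodes PUMA, the BH3-only protein through which p53 triggers neuronal death. Bbc3 (ENSMUSG00000002083.14; chromosome 7, 16042318 to 16052130, plus strand) stood at 25.5 and 26.9 CPM in cKO 2 and cKO 3, against 30.9 and 35.1 CPM in Control 2 and Control 3. It was the 1 gene of the 9 with both cKO libraries below both Control libraries in CPM, at a fold of 0.794 with a 95% interval of 0.584 to 1.08 (log2 fold change -0.33 with an SE of 0.19, edgeR adjusted p = 0.563). The TPM groups were apart the same way, at 36.0 and 43.5 TPM in cKO and 47.2 and 57.3 TPM in Control.

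Bax, the pore-forming effector of mitochondrial permeabilisation, was the most abundant gene of the group and the closest to equal between genotypes. Bax (ENSMUSG00000003873.12; chromosome 7, 45111121 to 45116322, minus strand) stood at 214 and 173 CPM in cKO 2 and cKO 3, against 191 and 193 CPM in Control 2 and Control 3. The 2 cKO libraries lay on either side of the Control pair. The fold was 1.01 with a 95% interval of 0.807 to 1.25 (log2 fold change 0.00905, SE 0.14, edgeR adjusted p = 0.99), and the group means were 193 ± 28.8 CPM in cKO and 192 ± 1.19 CPM in Control (SD, n = 2). The sign turned without cKO 2 (log2 fold change -0.150) and was positive without cKO 3 (0.153).

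Casp9 encodes the initiator caspase that the apoptosome activates. Casp9 (ENSMUSG00000028914.14; chromosome 4, 141520923 to 141543287, plus strand) stood at 30.0 and 32.8 CPM in cKO 2 and cKO 3, against 13.4 and 21.5 CPM in Control 2 and Control 3. Every cKO value was above every Control value, and the Control libraries differed more from each other than the cKO libraries did. The mean was 31.4 ± 2.01 CPM in cKO and 17.4 ± 5.71 CPM in Control (SD, n = 2), a fold of 1.80 with a 95% interval of 1.17 to 2.77. The log2 fold change of 0.85 (SE 0.27) had an unadjusted p of 0.0142 and an edgeR adjusted p of 0.38. It depended on which Control library was kept, at 0.545 without Control 2 and 1.23 without Control 3. Cela2a, which overlaps the end of Casp9 on the other strand, had 11.1 counts in cKO 2 and 0 in the other libraries; the kit does not mark strand.

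**Figure D2:**
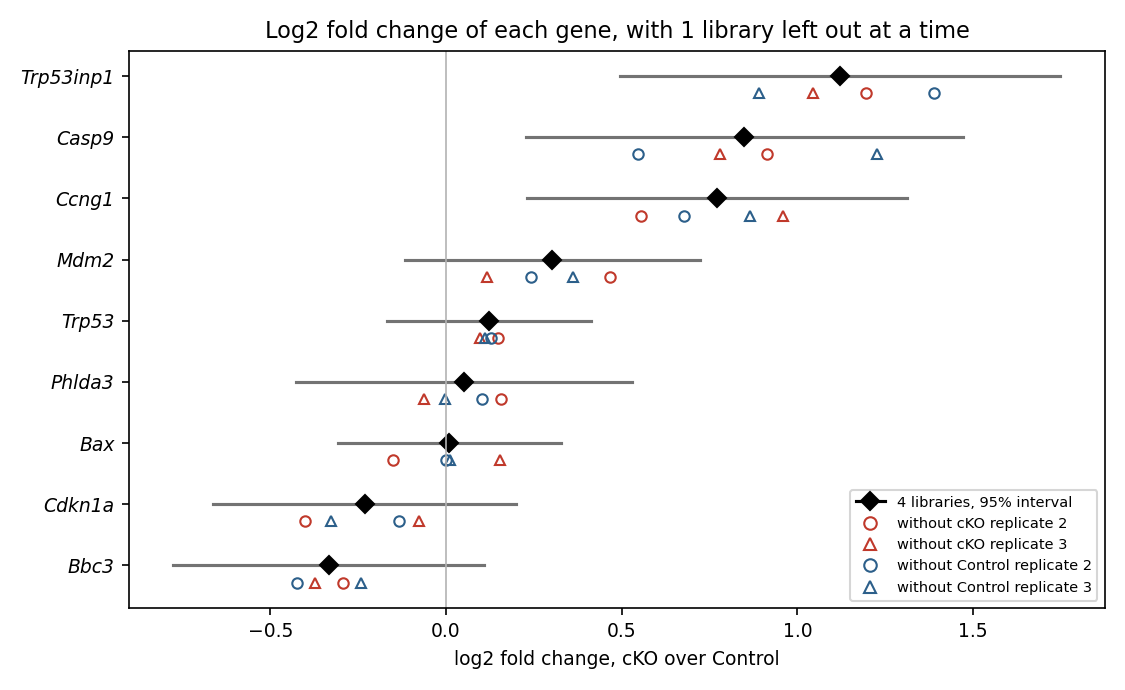
Log2 fold change of cKO over Control for the 9 genes; diamonds and bars give the value from 4 libraries with its 95% interval, and open symbols the value with 1 library left out (red for cKO, blue for Control; circles for replicate 2, triangles for replicate 3). The intervals of Trp53inp1, Casp9 and Ccng1 lie above 0, the others span 0, and the open symbols of Bax and Phlda3 fall on both sides of it.

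Per transcript length the group spanned a wide range of levels. Bax was highest at 417 ± 10.1 TPM (SD over the 4 libraries), above 97.6% of tested genes. Trp53 and Cdkn1a came next at 74.3 ± 6.34 and 68.3 ± 9.97 TPM, and their ranges over the libraries overlapped. Bbc3 followed at 46.0 ± 8.83 TPM and overlapped neither Cdkn1a nor Phlda3. Its highest value of 57.3 TPM lay just under the lowest of Cdkn1a at 58.2 TPM. It did overlap Mdm2, as its lowest value of 36.0 TPM lay under the highest of Mdm2 at 40.1 TPM. Phlda3 and Mdm2 could not be ordered, at 29.9 ± 3.99 and 29.7 ± 7.09 TPM. The 3 genes with the largest positive fold changes were also the 3 lowest: Ccng1 at 9.99 ± 2.78 TPM, Casp9 at 8.88 ± 2.99 TPM and Trp53inp1 at 4.19 ± 1.64 TPM, each overlapping the next.

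**Figure D3:**
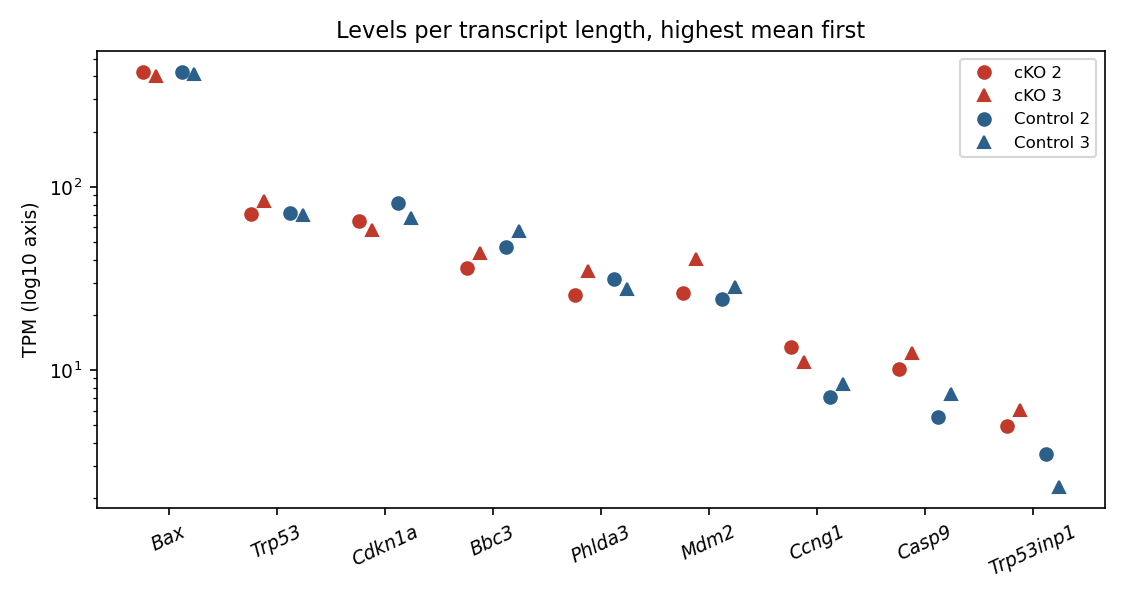
TPM (log10 axis) of the 9 genes in each library, ordered by the mean over the 4 libraries; red symbols are cKO, blue symbols Control, circles replicate 2 and triangles replicate 3. Bax stands alone at 404 to 426 TPM, and Ccng1, Casp9 and Trp53inp1 lie lowest, with cKO above Control.

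The ratio of count to TPM gives an apparent transcript length, which moves when a gene uses longer or shorter transcripts. It was set to the deposited gene length through 969 protein-coding genes with 1 transcript, of which the middle 50% lay between 0.907 and 1.09 times that length. Trp53inp1 came out at 5529 and 5681 bases in cKO 2 and cKO 3, against 4941 and 5197 bases in Control 2 and Control 3. Both cKO values were the longer ones, and the ratio of the means, cKO over Control, was 1.11. Among the single-transcript genes the 5th to 95th percentile of that ratio was 0.967 to 1.06. Genes with 1 transcript cannot change transcript use, so this range does not show how far genes with several transcripts move. Among the pathway lists below, genes moved further than Trp53inp1 in both directions. Those that moved the other way included Bcl2l11, at a mean of 3581 bases in cKO and 5231 bases in Control. Another was Apaf1, at a mean of 3611 bases in cKO and 6165 bases in Control. The Apaf1 values differed widely within cKO, at 2112 and 5111 bases in cKO 2 and cKO 3. Casp9 came out at 4063 and 4144 bases in cKO 2 and cKO 3 and at 3669 and 4342 bases in Control 2 and Control 3, so the Control libraries lay on both sides. Mdm2, which has an internal promoter that p53 uses, came out at 2605 and 2449 bases in cKO 2 and cKO 3. In Control 2 and Control 3 it came out at 2726 and 2525 bases. Its ratio of 0.962 was also outside the range of the single-transcript genes, though its groups overlapped. The other 7 genes had ratios from 0.971 to 1.05, Casp9 included.

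Other genes of the pathway had fold changes in both directions and none passed the threshold. Of 29 further p53 targets 27 were tested, with 11 positive and 16 negative fold changes and a median log2 fold change of -0.12. At an unadjusted p under 0.05 there were 3, all higher in cKO, or 11.1% of the list, beside 10.9% of all genes in either direction and 5.28% with cKO higher. Those were Zmat3, an RNA-binding protein (12.4 and 14.5 CPM in cKO, 7.23 and 8.83 CPM in Control; log2 fold change 0.74, SE 0.28), Sesn1, a sestrin that restrains mTORC1 (54.8 and 48.5 CPM in cKO, 37.6 and 38.9 CPM in Control; 0.43, SE 0.16), and Perp, a membrane protein of desmosomes and p53-dependent death (12.9 and 11.4 CPM in cKO, 5.19 and 8.22 CPM in Control; 0.86, SE 0.33). The exonuclease gene Aen was next, at 101 and 107 CPM in cKO and 90.6 and 80.8 CPM in Control (0.28, SE 0.13). Their edgeR adjusted p-values were 0.425, 0.426, 0.427 and 0.488. The list's median turned to 0.08 without cKO 3, where 17 of 29 were positive. That fit also tested Eda2r and Tnfrsf10b, described next. They passed its filter through their counts in cKO 2, the cKO library left. This median and count therefore cover another gene set than the 11 of 27. The 2 targets that did not pass the count filter, named after their values were seen, were the receptor genes Eda2r, with 30 and 6 counts in cKO 2 and cKO 3 and 1 and 2 counts in Control 2 and Control 3, and Tnfrsf10b, with 28 and 8 counts in cKO and 0 and 7 counts in Control. For both, cKO 2 held most of the counts.

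Among 19 tested members of the p53 family and its regulators, 10 had positive and 9 negative fold changes, with a median of 0.08. The smallest p was that of Atm, the kinase that signals DNA breaks to p53, at 9.79 and 6.96 CPM in cKO and 4.18 and 4.11 CPM in Control (edgeR adjusted p = 0.406, log2 fold change 1.01, SE 0.36). Atr, its relative for stalled replication, pointed the other way at 5.58 and 5.34 CPM in cKO and 10.3 and 6.85 CPM in Control (-0.65, SE 0.35). The p53 inhibitor gene Ppp1r13l stood at 0.685 and 0.744 CPM in cKO and 1.68 and 2.03 CPM in Control (-1.37, SE 0.70), and the acetyltransferase gene Ep300 at 20.6 and 28.1 CPM in cKO and 18.2 and 17.6 CPM in Control (0.45, SE 0.24). The edgeR adjusted p-values of these 3 lay between 0.524 and 0.544. The median turned to -0.07 without cKO 3. Trp63 and Cdkn2a did not pass the filter, with 0 counts in both cKO libraries and in Control 3 and 6 and 4 counts in Control 2.

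In the remaining BCL2 family, 7 of 13 tested genes were positive and 6 negative (median 0.01, and -0.05 without cKO 2), and none had an unadjusted p under 0.05. First by p came the BH3-only gene Bcl2l11, which encodes BIM, at 11.3 and 16.6 CPM in cKO and 5.55 and 10.4 CPM in Control (edgeR adjusted p = 0.49, log2 fold change 0.81, SE 0.38). The mitophagy receptor gene Bnip3l stood at 290 and 241 CPM in cKO and 214 and 229 CPM in Control (0.26, SE 0.13). For Bmf, another BH3-only gene, the log2 fold change was -0.77 (SE 0.45), and for the survival gene Bcl2l2 it was -0.60 (SE 0.39). Bik did not pass the filter, with 4 and 12 counts in cKO and 0 in Control.

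The list of apoptosome and caspase genes had fold changes in both directions, and none passed the threshold. Its 16 tested genes cover the apoptosome, the other caspases and their inhibitors, and also the cell death genes Aifm1, Endog, Dffa and Dffb. Of these 16, 6 were positive and 10 negative, with a median log2 fold change of -0.28. Over all tested genes 8545 of 17017 were negative. An unadjusted p under 0.05 was found for 3 of the 16, all lower in cKO, or 18.8% of the list, beside 10.9% of all genes in either direction and 5.66% with cKO lower. The groups overlapped in CPM for 13 of the 16, and the other 3 were below in cKO (18.8% of the list, beside 44.1% of all genes apart in either direction and 22.2% below). One of them was Htra2, a mitochondrial protease that counters caspase inhibitors, which stood at 56.2 and 48.7 CPM in cKO and 69.5 and 65.9 CPM in Control (log2 fold change -0.37, SE 0.15). Apaf1, the scaffold of the apoptosome, overlapped between groups at 9.74 and 18.9 CPM in cKO and 18.9 and 25.2 CPM in Control (-0.62, SE 0.34). The list's median stayed negative without each library, between -0.31 and -0.05. Markers of astrocytes and striatal neurons were lower in the same cKO libraries, as given above, and their part in these values was not tested. The 11 markers of dividing cells summed to 323 and 283 CPM in cKO and 316 and 331 CPM in Control.

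**Figure D4:**
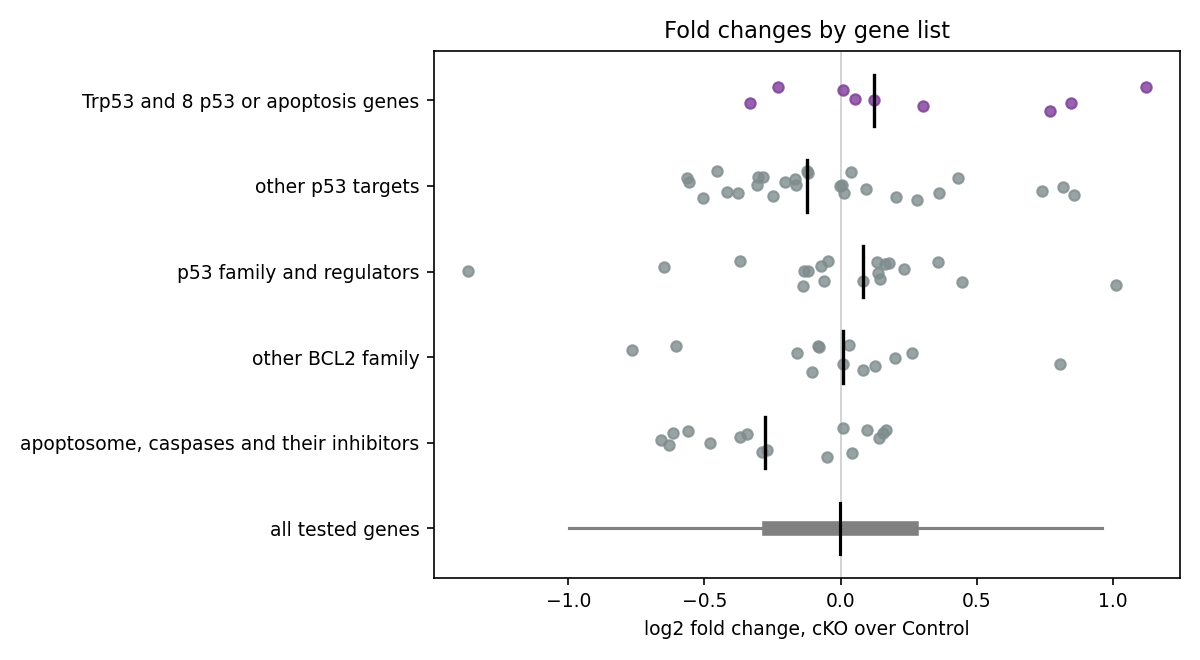
Log2 fold change of cKO over Control by gene list; each dot is a tested gene, vertical bars are list medians, and the lowest row gives the 5th to 95th percentile (thin line) and the middle 50% (thick line) of all 17017 tested genes. The medians are 0.12 for the 9 genes, -0.12, 0.08, 0.01 and -0.28 for the other lists from top to bottom, and near 0 for all genes.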

How the data were processed

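RNA from newborn cortex was made into SMART-Seq v4 libraries, per the labels' protocols. The authors used DRAGEN and build GRCm39, per the submitters' processing notes; no source used here gives versions, annotation release or settings. The deposited table gives estimated counts per gene, and the authors' TPM columns each sum to 1000000. Between 30.7% and 34.3% of the counted genes in a library had an estimated count that was not whole; counts were rounded.

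Genes were filtered, scaled (TMM) and tested with edgeR 4.0.16 (R 4.3.3): quasi-likelihood test, genotype as the only term, Benjamini-Hochberg adjustment over all tested genes, threshold 0.05. SEs are the absolute log2 fold change over the square root of F. CPM used the TMM factors. TPM was used for levels only, with no test. The p-values set the difference between genotypes against the spread between these libraries. For Control that spread may be technical, while the cKO libraries differ in sex and so come from different animals. Libraries were no duplicates (chi-square per degree of freedom 27.7 between the cKO and 12.8 between the Control libraries). The procedure was tested on simulated data.

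The members and lists were chosen with earlier results of these data known. Named were Map2k7, the 9 genes and, per list, the 4 genes with the smallest p; 2 genes that this rule names are not reported here. Alternatives changed the tool (DESeq2 1.42.0, or voom in limma 3.58.1), the scaling (upper-quartile, RLE), the filter (none, or mean CPM of 1 or more), the shrinkage (robust), the model (replicate block), the threshold (0.1) or left out 1 library. List counts under these settings and the TPM comparison were added after seeing the data.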

Additional observations from a re-analysis of the deposited data

How the results depend on the processing

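For the 9 genes, 113 of 117 values under the alternatives kept both their sign and their side of the threshold; no alternative called any of them. The other 4 turned in sign, for genes with a fold near 1: Bax at -0.00519 with limma-voom and at -0.150 without cKO replicate 2, and Phlda3 at -0.0619 without cKO replicate 3 and -0.00164 without Control replicate 3. With 1 library left out, Bax ranged from -0.150 to 0.153 and Phlda3 from -0.0619 to 0.157. With 1 library left out the lone sample of its group is assumed to vary like the other group. Trp53inp1 then had log2 fold changes from 0.891 to 1.39, Ccng1 from 0.556 to 0.959 and Casp9 from 0.545 to 1.23. Over all genes, the main count of 1 higher and 7 lower became 21 and 37 with no filter and 80 and 105 with DESeq2. The count of higher genes was 2 at a mean CPM of at least 1, 3 with limma-voom and 3 at a threshold of 0.1. Leaving out 1 library gave 0 higher and 0 to 2 lower genes. Same-numbered libraries are not tied by the labels, and their deviations from the group means had a correlation of 0.0136 across genes. With the replicate block, the log2 fold changes of Trp53inp1, Ccng1 and Casp9 were 1.14, 0.76 and 0.88 (edgeR adjusted p = 0.388, 0.478 and 0.437). With 2 libraries per group, the 95% interval of a fold spanned 0.89 to 1.33 for Trp53 and 1.41 to 3.36 for Trp53inp1.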
